A study of Mus musculus with 2 samples.

Results

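Oxidative phosphorylation genes of both genomes were followed in germinal center B cells, which form after immunization, diversify their antibodies by mutation and are selected with the help of T cells. The genes were chosen by symbol, as subunits of respiratory complexes I to IV and of ATP synthase and the assembly factors whose names begin with Ndufaf, with at least 50 UMIs over both libraries. A UMI (unique molecular identifier) is a tag that marks 1 captured RNA molecule. Of the 30905 genes listed, 105 symbols matched and 99 passed this minimum, against 11248 of all genes, and 86 of the 99 are encoded in the nucleus and 13 in mitochondrial DNA. Complex I gave 36 nuclear and 7 mitochondrial genes and 8 assembly factors, complex II gave 4, complex III 8 and 1, complex IV 14 and 3, and ATP synthase 16 and 2. Ndufa4, a complex IV subunit, and Cox7a2l, a relative of the subunit Cox7a2, were placed with complex IV. Atp5s, a coupling factor, was placed with ATP synthase. Cyc1, the cytochrome c1 subunit of complex III, has another kind of symbol and is not among the 99.

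The cells came from spleens of 8-week-old C57BL/6J mice, which had been given sheep red blood cells as the immunizing antigen. Germinal center B cells were sorted and their transcripts counted from the 3′ end by droplet single-cell sequencing in 2 libraries of 1 group, called library 1 and library 2. No label sets the libraries apart as conditions, says whether they came from separate or pooled animals, or gives the sort gate. The comparisons are therefore between classes of cells within the libraries, and p-values cover the spread between these libraries only, which may be technical.

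Oxidative phosphorylation passes electrons from NADH and succinate through complexes I, II, III and IV to oxygen, and ATP synthase uses the resulting proton gradient to make ATP. Complex II is encoded wholly in the nucleus, whereas the other complexes mix nuclear subunits, made on cytosolic ribosomes and imported, with core subunits made inside the organelle from mitochondrial DNA. Germinal center B cells divide fast, and oxidative metabolism is known to support them. Cells move between a dark zone, where they divide and mutate, and a light zone, where they are selected.

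The libraries held 75121538 and 61874342 UMIs. Limits of 500 genes and 1000 UMIs as minimum and of 20% mitochondrial UMIs as maximum left barcode numbers of 5142 and 3526, which was 61.3% and 46.0% of those passing the first 2 limits, at median depths of 8183.5 and 8243.0 UMIs. All mitochondrial genes in the files are among the 99, so this limit caps their summed level. Barcodes above 10% mitochondrial UMIs were shallower, at medians of 6952.5 and 6722 UMIs against 15933.5 and 15613.5 below. The libraries shared 22 barcodes, 9 of them among those kept. Scrublet called 0 doublets in either library, so it did not work here and doublets remain. Cd79a, a B cell receptor chain, was detected in 99.3% and 99.2% of barcodes and Mef2b, a transcription factor of germinal center B cells, in 83.3% and 82.5%, whereas the T cell gene Cd3e was seen in 0 and 1 barcodes. Bcl6 and Fas, also germinal center markers, were in fewer, 61.4% and 59.2%, and 48.9% and 50.3%. Of plasmablast (antibody-secreting cell) markers, Jchain was in 84.4% and 83.9% and Prdm1 in 1.17% and 1.08%. Of naive and memory B cell markers, Fcer2a was in 48.7% and 48.6% and Ccr7 in 1.32% and 2.10%.

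Mitochondrially encoded transcripts dominated the set. The 13 genes summed to 107216 and 103768 CPM (UMIs of a gene per 1000000 UMIs of all genes) in libraries 1 and 2, and the 86 nuclear genes to 20746 and 19212. Counts were taken from the transcript end, so CPM was not divided by length. Capture can still differ between genes, and orders across genes are descriptive. The core subunits of complex IV, mt-Co1, mt-Co2 and mt-Co3, together reached 51953 and 49789.9 CPM, against 5239 and 4521 for its 14 nuclear genes. For ATP synthase the mitochondrial sum was 23902 and 24199 CPM and the nuclear one 7079 and 6949. In complex I the mitochondrial sum was 20254 and 18708 CPM and the nuclear one 5733 and 5309. In complex III mt-Cytb alone outweighed the nuclear sum of 1989 and 1662 CPM. Complex II summed to 461 and 525 CPM and the complex I assembly factors to 245 and 247, the lowest of the groups.

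Among single genes, mt-Atp6, the membrane subunit a of ATP synthase, was highest, at 23802 and 24149 CPM. It was followed by mt-Co3, mt-Co2, mt-Co1 and mt-Cytb, the cytochrome b of complex III, at 11107 and 11071 CPM. Of complex I, mt-Nd1, mt-Nd4 and mt-Nd2 lay between 5064 and 6341 CPM, and mt-Nd6, the one gene of the 13 encoded on the other strand, at 54.8 and 42.4. The most abundant nuclear genes were Atp5b, the catalytic beta subunit, at 1057 and 1173 CPM and Cox4i1, a complex IV subunit, at 959 and 971. Among the lowest were Ndufaf5 at 8.15 and 10.8 CPM and Atp5s at 8.05 and 8.05.

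Isoforms known from other tissues were near or under the minimum. Cox7a1, the heart and muscle isoform of Cox7a2, had 134 and 29 UMIs, and Cox6b2, the testis isoform of Cox6b1, had 150 and 96. These were the members just above the 50 UMI minimum. Just below it lay Ndufa4l2, a hypoxia-induced relative of Ndufa4, with 28 UMIs in all, and Cox4i2, the alternative form of Cox4i1, with 21. Cox6a2, a muscle isoform, had 2 UMIs, and Cox7b2, Cox8b and Cox8c had 0, which allows levels of up to 0.0509 and 0.0727 CPM (3 counts a library, counting error only). Their common counterparts Cox6a1, Cox7b and Cox8a stood at 268 and 239, 246 and 193, and 531 and 425 CPM.

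Some mitochondrial genes share bases, which limits how their counts can be read. On mm10 with GENCODE M21, the start of mt-Atp6 lies inside the end of mt-Atp8 (chrM:7927-7969, plus strand), and these 43 bases are 21.1% of the 204 bases of mt-Atp8. The start of mt-Nd4 overlaps the end of mt-Nd4l by 7 bases (chrM:10167-10173), and mt-Nd5 and mt-Nd6 overlap by 14 bases on opposite strands (chrM:13552-13565). The longest shared stretch is shown because reads from it cannot be assigned to either gene of the pair, in lower case with the start codon of mt-Atp6 in capitals.
mt-Atp8 and mt-Atp6: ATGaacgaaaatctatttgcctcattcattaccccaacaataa
The mt-Atp8 count of 99.9 and 50.5 CPM stood beside 23802 and 24149 CPM of its partner, and how overlaps, strands and multi-mapping reads were counted is not given in the sources used here.

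Zone classes came from RNA of the genes used to sort zones by flow cytometry. A cell was put in the light zone gate where a UMI of Cd83 or Cd86, but not of Cxcr4, remained after its barcode was thinned to 3400 UMIs, and in the dark zone gate for the opposite. Light zone gate barcodes numbered 1661 and 1165, dark 783 and 477, both signals were found in 572 and 368, and neither in 1661 and 1125. A single UMI decided 51.4% and 45.7% of light and 74.6% and 81.1% of dark calls, so the zones were separated only in part.

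All 13 mitochondrially encoded genes were lower in light than in dark zone gate cells, whereas nuclear genes moved in both directions. Summed mitochondrial transcripts were 103481 and 100103 CPM in light and 116221 and 114632 CPM in dark zone gate cells of libraries 1 and 2, and the ranges did not overlap. Summed nuclear transcripts were 20202 and 18624 against 20418 and 19138 CPM, closer together than the libraries were. Of the 99 genes, 16 rose and 27 fell in the light zone gate (edgeR quasi-likelihood test with library as a block, Benjamini-Hochberg adjusted p under 0.05 over all 10722 genes tested), where 17.1% of all genes tested rose and 13.3% fell. Among nuclear genes 16 rose and 14 fell, shares close to those of all genes, and among mitochondrial genes 0 rose and 13 fell. The median log2 fold change was -0.03 for nuclear and -0.16 for mitochondrial genes, and 0.00 for all genes. All 43 called genes had the same sign in both libraries. The nuclear rises depended on the mitochondrial share of the cells: with the 10% limit 2 nuclear genes rose and 18 fell, and at equal mitochondrial share, a choice made after seeing the data, 1 rose and 29 fell, and 2 and 1 of the 16 that had risen still rose.

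The largest mitochondrial difference was in mt-Nd6, with 49.7 and 38.3 CPM in light and 63.9 and 50.4 CPM in dark zone gate cells and a log2 fold change of -0.37 ± 0.08 (SE, adjusted p = 2.54e-05) by edgeR. For mt-Atp6 the levels were 22797 and 23082 CPM in light and 26025 and 26828 in dark, a change of -0.20 ± 0.02 (SE, adjusted p = 7.01e-24). The remaining 11 fell by 0.11 to 0.18 on the log2 scale, and each was lower in light zone gate cells of both libraries. Of complex IV, mt-Co2 fell by 0.18, mt-Co3 by 0.17 and mt-Co1 by 0.16 on that scale. Dark zone gate cells also had higher median mitochondrial shares, 14.0% and 14.4% against 12.8% in both libraries, and that share is made of these genes. With light and dark cells drawn to equal mitochondrial shares, which fixes the sum, 1 of the 13 fell and 0 rose, where 11.1% of all genes rose and 10% fell. With a 10% limit 5 of the 13 fell, where 12.3% of all genes rose and 10.4% fell.

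Among nuclear genes, assembly factors of complex I gave the 2 largest rises, of which that of Ndufaf4 passed under all 4 choices of cells tried here and that of Ndufaf6 under none (10% limit, equal depth, equal phase and equal mitochondrial share). Ndufaf4, which acts early in building complex I, stood at 41.3 and 47.6 CPM in light and 30.3 and 31.8 in dark zone gate cells, a log2 fold change of 0.51 ± 0.09 (SE, adjusted p = 1.61e-07). Ndufaf6 rose by 0.36 ± 0.14 (SE, adjusted p = 0.0356) and Ndufaf7, a mitochondrial methyltransferase, by 0.28 ± 0.11 (SE, adjusted p = 0.0449). These made 3 of the 8 assembly factors, and the other 5 did not pass, among them Ndufaf3 at -0.20 ± 0.09 (SE, adjusted p = 0.0596). Of the 36 nuclear subunits of complex I, 6 rose and 5 fell. Ndufc2 rose by 0.28 ± 0.05 (SE, adjusted p = 4.20e-06) and Ndufa7 by 0.26 ± 0.05 (SE, adjusted p = 2.01e-05), both accessory subunits and neither called with the 10% limit, at 0.07 and 0.09, whereas Ndufv3, at 119.8 and 77.4 against 133 and 91.5 CPM, fell with -0.18 ± 0.06 (SE, adjusted p = 0.00898).

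In complex II the membrane anchor Sdhd rose, whereas the iron-sulfur subunit Sdhb fell. Sdhb stood at 219 and 224 CPM in light and 266 and 293 in dark zone gate cells, a log2 fold change of -0.32 ± 0.05 (SE, adjusted p = 2.87e-11). The change of Sdhd was 0.18 ± 0.07 (SE, adjusted p = 0.0322), while Sdha at -0.05 and Sdhc at -0.09 did not pass. In complex III Uqcrb rose by 0.28 ± 0.06 (SE, adjusted p = 2.76e-06) and Uqcrc1, a core protein, fell with -0.13 ± 0.05 (SE, adjusted p = 0.0279), and the other 6 nuclear genes did not pass. Uqcrb was not called with the 10% limit, at 0.09.

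Complex IV was divided by gene. Cox5a, a nuclear subunit, rose from 281 and 333 CPM in dark to 346 and 403 in light zone gate cells, a log2 fold change of 0.30 ± 0.04 (SE, adjusted p = 9.66e-11). It was not called with the 10% limit, at 0.12, or at equal mitochondrial share, at 0.06. Ndufa4 and Cox8a rose by 0.13 and 0.11, but their signs turned, without a call, to -0.02 and -0.09 with the 10% limit and to -0.09 and -0.07 at equal mitochondrial share. Cox7a2l fell, with -0.23 ± 0.04 (SE, adjusted p = 6.67e-08), as did Cox4i1 with -0.09 and Cox6b1 with -0.10. Cox6b2 had the largest change of the 99, at -1.0 ± 0.30 (SE, adjusted p = 0.00435), but rested on 41 and 21 UMIs in light and 28 and 26 in dark zone gate cells, and its log2 difference was -0.57 in library 1 and -1.62 in library 2.

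The genes for the c ring of ATP synthase, which turns with proton flow, are 3 paralogs with the same mature protein, and they differed. Atp5g1 stood at 279 and 312 CPM in light and 236 and 243 in dark zone gate cells, a change of 0.31 ± 0.05 (SE, adjusted p = 2.52e-10). Atp5g2 rose by 0.20 ± 0.04 (SE, adjusted p = 4.40e-06), and Atp5g3, at 0.04 ± 0.04 (SE, adjusted p = 0.541), did not pass. At equal mitochondrial share neither Atp5g1, at 0.05, nor Atp5g2, at -0.0021, was called. The catalytic subunit Atp5b fell from 1112 and 1215 CPM in dark to 963 and 1089 in light zone gate cells, a change of -0.18 ± 0.03 (SE, adjusted p = 1.18e-06), and its partner Atp5a1 changed by -0.09 ± 0.04 (SE, adjusted p = 0.0302). Of all nuclear falls in the light zone gate, 4 remained and 10 were not called with equal phase shares, described further on. By DESeq2 3 remained and 11 were not called. Which single genes remained is not given here.

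**Figure D1:**
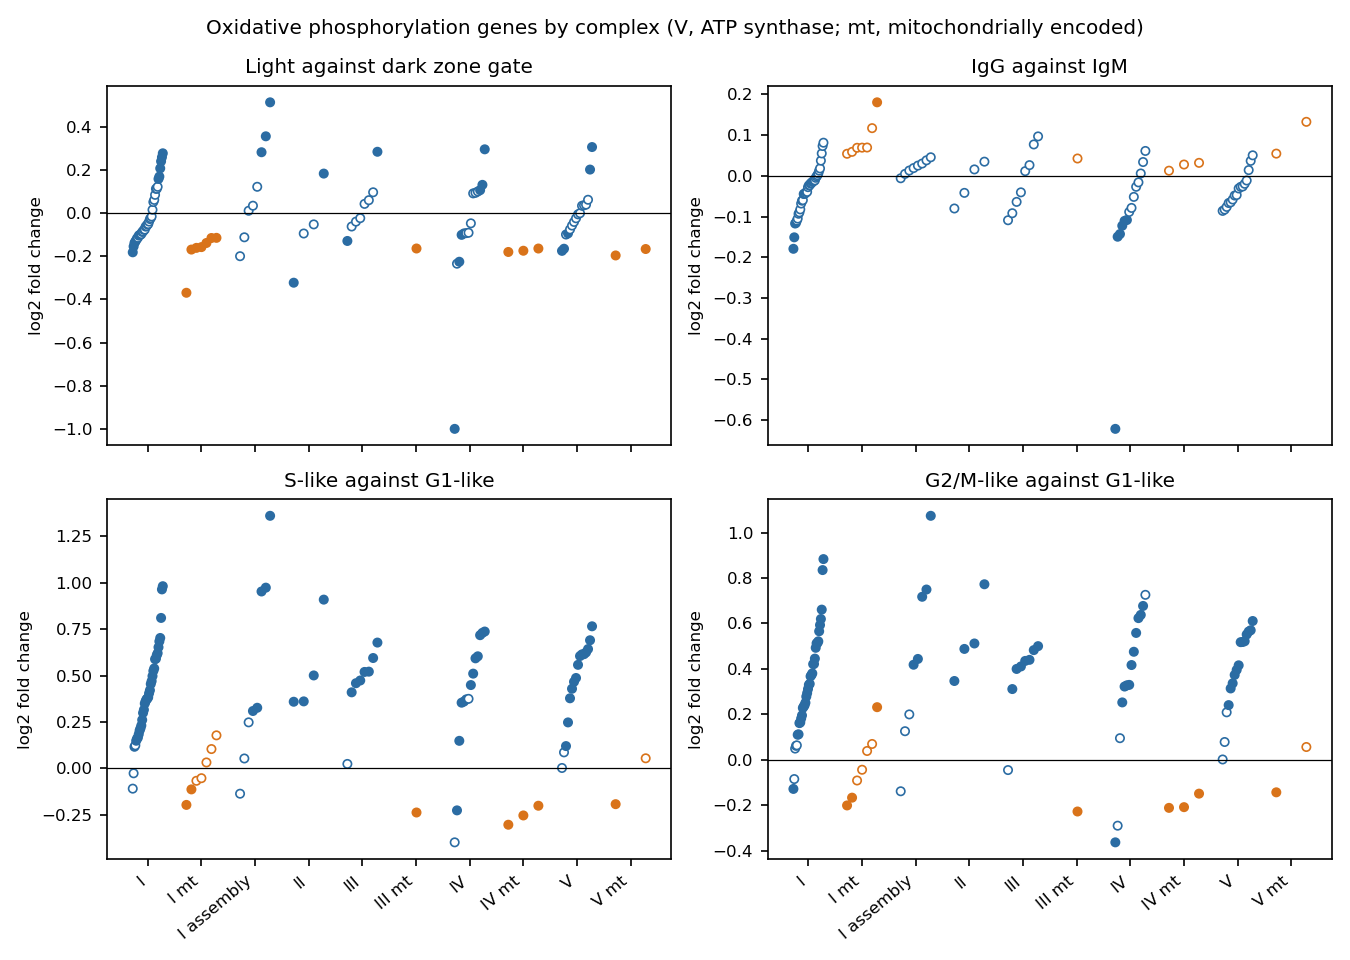
Log2 fold change of each of the 99 genes by complex and genome in the 4 comparisons, with nuclear genes in blue and mitochondrial genes in orange, filled where the edgeR adjusted p was under 0.05 and open otherwise; vertical scales differ between panels. All 13 mitochondrial genes lie below 0 for the zone gates, and 74 nuclear genes are filled above 0 for S-like against G1-like cells.

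The share of S-like and G2/M-like calls, described further on, was lower in the light zone gate. S-like and G2/M-like cells made up 71.0% and 73.5% of light and 86.0% and 86.4% of dark zone gate cells in libraries 1 and 2 (cells with a phase call, with exact 95% intervals from 68.8% to 76.0% and from 83.0% to 89.3%). These intervals treat each barcode as independent and do not cover the spread between libraries. With equal phase shares in both gates, 15 nuclear genes rose and 4 fell, while 10 of the 13 mitochondrial genes fell and 0 rose, where 12.9% of all genes tested rose and 8.75% fell. Of the 16 nuclear genes that rose, 15 still rose, and of the 14 that fell, 4 still fell. With cells drawn to equal depth, 10 nuclear genes rose, 21 fell and 13 mitochondrial genes fell, where 15.5% of all genes rose and 12.7% fell. Cells with both signals had the highest mitochondrial sums of the gate classes, 123549 and 121460.0 CPM, and the lowest nuclear sums, 18478 and 17369.9 CPM, whereas cells with neither had mitochondrial sums of 101243 and 97789 and nuclear sums of 22214 and 20442 CPM.

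Markers of other cells differed between the gates as well. The 6 naive and memory B cell markers summed to 279.8 and 295 CPM in light and 103 and 143 CPM in dark zone gate cells, and the 4 macrophage markers to 7.45 and 2.49 CPM in light and 0.112 and 0.358 in dark. The 4 plasmablast markers summed to 599 and 605 CPM in light and 723 and 815 CPM in dark zone gate cells. Their part in the results was not tested. DESeq2 on the same sums called 6 genes higher and 11 lower, 8 of the latter mitochondrial, where 6.33% of all genes were higher and 4.41% lower.

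**Figure D2:**
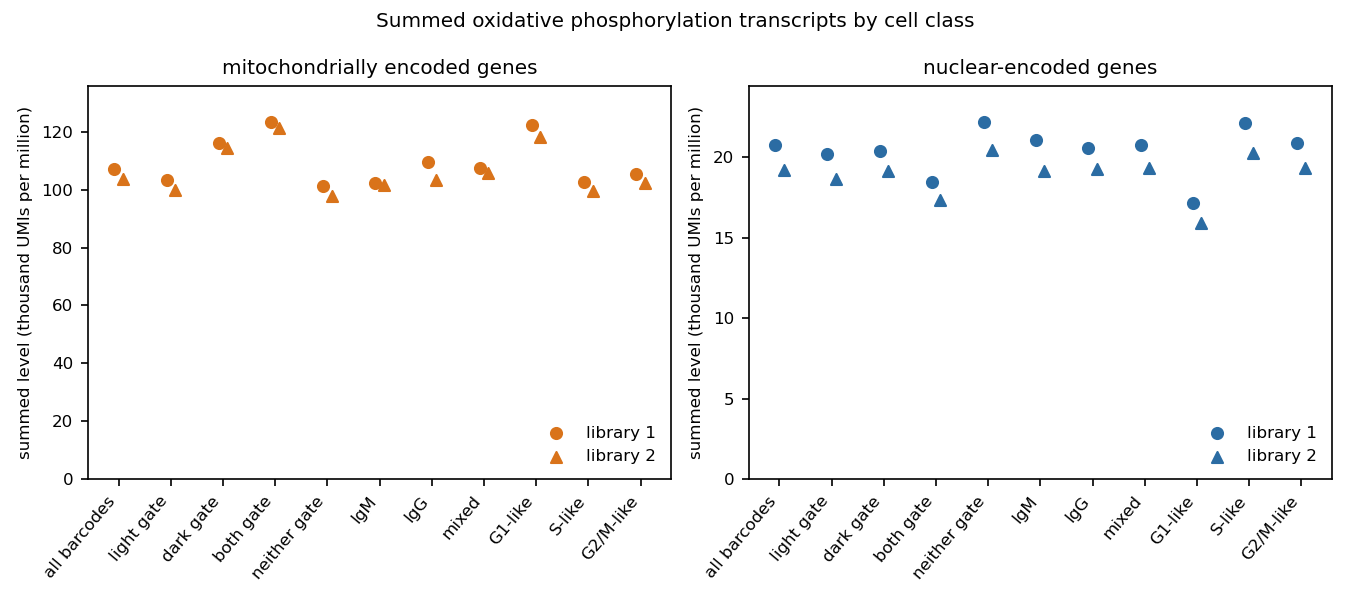
Summed level (in units of 1000 CPM) of the 13 mitochondrial (left) and 86 nuclear (right) oxidative phosphorylation genes in each cell class, with library 1 as circles and library 2 as triangles. G1-like cells show high mitochondrial and low nuclear sums, and light lie below dark zone gate cells for mitochondrial genes.

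IgG and IgM cells were compared because switching to IgG follows activation in B cells. IgG cells had at least 5 heavy chain constant UMIs with at least 80% from Ighg genes, and IgM cells at least 80% from Ighm and Ighd, which gave 2192 and 1437 IgG and 1775 and 1323 IgM barcodes. Differences were small. Of the 99 genes, 1 was higher and 9 were lower in IgG cells (edgeR, 11231 genes tested), where 5.87% of all genes were higher and 8.17% lower. The share of the 99 that was lower is thus close to that of all genes. All 9 lower genes are nuclear, and 6 of them, Cox5a, Ndufa4, Cox7b, Cox8a, Cox7a2l and Cox6b2, belong to the 14 of complex IV. At equal mitochondrial share the signs of Cox8a and of Ndufa7, another of the 9, turned without a call, to 0.0025 and 0.0022.

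Cox5a stood at 306 and 383 CPM in IgG and 352 and 397 CPM in IgM cells, a log2 fold change of -0.15 ± 0.04 (SE, adjusted p = 0.00132). For Ndufa4 the levels were 368 and 324 CPM in IgG and 409.9 and 344 in IgM cells, a change of -0.14 ± 0.04 (SE, adjusted p = 0.00204). Both were lower in IgG cells of both libraries, with larger gaps in library 1. For Ndufa4 the libraries differed from each other more than the isotypes did. Cox7b changed by -0.12 ± 0.04 (SE, adjusted p = 0.0181), Cox8a by -0.11 ± 0.04 (SE, adjusted p = 0.0216) and Cox7a2l by -0.11 ± 0.03 (SE, adjusted p = 0.0206). Cox6b2, at -0.62 ± 0.22 (SE, adjusted p = 0.0385), rested on 52 and 31 UMIs in IgG and 70 and 37 in IgM cells. Of complex I, the accessory subunits Ndufa8, Ndufb5 and Ndufa7 were lower, at -0.18 ± 0.04 (SE), -0.15 ± 0.04 (SE), and -0.12 ± 0.04 (SE), with adjusted p = 0.00124, 0.00220 and 0.0483 by edgeR. None of the 16 nuclear ATP synthase, 8 complex III, 4 complex II or 8 assembly factor genes passed.

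The higher gene was mt-Nd4l, at 253 and 122 CPM in IgG and 222 and 105 CPM in IgM cells, a change of 0.18 ± 0.04 (SE, adjusted p = 3.66e-04). Its neighbour mt-Nd4, which overlaps its end, did not pass, at 0.05 ± 0.03 (SE, adjusted p = 0.260). How reads of overlapping mitochondrial genes were counted is not given, so the change cannot be assigned to mt-Nd4l alone. For mt-Nd4l the libraries differed from each other more than the isotypes did. All 13 mitochondrial genes had a positive estimate, with a median of 0.06, but in 3 of them, mt-Co1, mt-Co2 and mt-Co3, the libraries differed in sign. Summed mitochondrial levels were 109614 and 103549 CPM in IgG and 102478 and 101827 CPM in IgM cells. Both IgG values lay above both IgM values, and the gap between the classes was smaller in library 2 than in library 1.

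The mitochondrial limit weighed on this comparison. It kept 60.8% and 44.8% of IgG and 72.1% and 61.0% of IgM barcodes that lay at or below 40% mitochondrial UMIs, so a smaller share of IgG barcodes was kept in both libraries. With the limit at 40%, all 13 mitochondrial genes were higher in IgG cells, at a median of 0.20, and 48 nuclear genes were lower and 0 higher, at a median of -0.10, where 11.9% of all genes were higher and 15.1% lower. With the limit at 10%, 12 of the 13 mitochondrial genes had a negative estimate, 5 of them called lower and 0 higher, at a median of -0.05, and mt-Nd4l kept its sign at 0.06 but was not called. Of the nuclear genes 3 were then higher and 1 lower, where 5.95% of all genes were higher and 7% lower. At equal depth 6 of the 99 were higher and 20 lower, where 6.68% of all genes were higher and 10.1% lower. With total counts in place of TMM factors (trimmed mean of M-values, a scaling between sums), 11 genes were higher, 9 of them mitochondrial, and 8 lower, where 8.58% of all genes were higher and 7.38% lower. By DESeq2 0 of the 99 passed, with 10 at an unadjusted p under 0.05, where 0.703% of all genes were higher and 1.74% lower. Naive and memory B cell markers summed to 152 and 153 CPM in IgG and 216 and 237 CPM in IgM cells, and their part in the result was not tested.

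Cell cycle classes were called from scores of S phase and G2/M phase gene lists that hold none of the 99 genes. G1-like barcodes numbered 952 and 572, S-like 1483 and 1060, and G2/M-like 2242 and 1503. Of cells with a phase, 12.9% and 12.1% lay within 0.05 of a boundary in score. G1-like cells were shallower, with median depths of 5369.5 and 5741 UMIs against 9689 and 10236 in S-like and 10593 and 10412 in G2/M-like cells. They also carried more naive and memory B cell marker transcripts, 449 and 505 CPM against 151 and 154 in S-like and 147 and 159 in G2/M-like cells, and macrophage markers summed to 45.3 and 8.45 CPM in G1-like cells and to at most 0.721 in the others. Their part in the results that follow was not tested.

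Nuclear oxidative phosphorylation genes were higher and part of the mitochondrial ones lower in S-like and G2/M-like than in G1-like cells, before cells were matched in depth. Summed nuclear levels were 17149.9 and 15927 CPM in G1-like, 22142 and 20278 in S-like and 20881 and 19364 in G2/M-like cells, and G1-like cells of both libraries lay below all the others. Summed mitochondrial levels were 122478 and 118270.0 CPM in G1-like, 102734 and 99749 in S-like and 105607 and 102493 in G2/M-like cells. For S-like against G1-like cells, 74 of the 99 genes rose and 8 fell (edgeR, 11360 genes tested), where 28.6% of all genes rose and 29.1% fell. Of the 86 nuclear genes 74 rose and 1 fell, at a median log2 fold change of 0.44, and of the 13 mitochondrial ones 0 rose and 7 fell, at a median of -0.11, against -0.04 for all genes. For G2/M-like against G1-like cells 71 rose and 9 fell, where 28.2% of all genes rose and 27.2% fell. There, 70 nuclear genes rose and 2 fell, at a median of 0.39, and 1 mitochondrial gene rose and 7 fell, at a median of -0.14. The comparisons share the G1-like sums as their reference.

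Much of this depended on depth. With G1-like, S-like and G2/M-like cells drawn to equal numbers in each of 10 depth bins (644 and 453 barcodes a phase), summed nuclear levels were 17969 and 16335 CPM in G1-like, 18155 and 17445 in S-like and 17180.5 and 16170.2 in G2/M-like cells. Mitochondrial sums were then lowest in G1-like cells, at 114922 and 112664 CPM against 132699 and 131532 in S-like and 135777 and 139618 in G2/M-like cells. G1-like cells, highest in mitochondrial sums without matching, were thus the lowest, and the nuclear sums of the phases overlapped. At equal depth 41 genes rose and 16 fell in S-like cells, where 20.5% of all genes rose and 18% fell, and 29 rose and 26 fell in G2/M-like cells, where 23% rose and 22.1% fell. All 13 mitochondrial genes rose in both, at medians of 0.23 and 0.25, including the 7 that fell without matching. The nuclear medians were 0.04 and -0.02. Drawing cells to equal depth also changed which cells entered, as the median mitochondrial share became 12.6% and 12.3% in G1-like, 15.4% and 15.7% in S-like and 14.7% and 15.9% in G2/M-like cells.

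**Figure D3:**
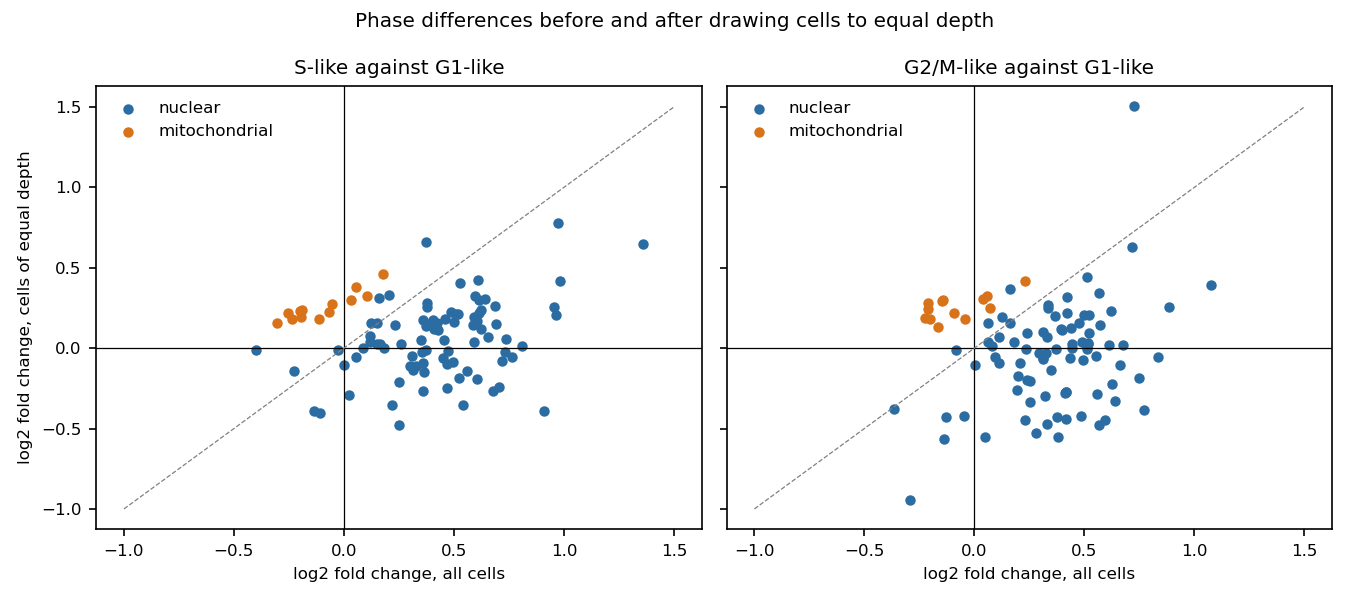
Log2 fold change of each gene against G1-like cells with all cells (horizontal) and with cells drawn to equal depth (vertical), for S-like (left) and G2/M-like cells (right), with nuclear genes in blue, mitochondrial genes in orange and a dashed line of equality. All 13 mitochondrial genes lie above 0 on the vertical axis, and most nuclear genes lie right of 0 but spread around 0 vertically.

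Of the 74 nuclear genes that rose in S-like cells, 28 still rose at equal depth, 11 fell and 35 did not pass. In G2/M-like cells 15 of 70 still rose, 20 fell and 35 did not pass. Of the 8 assembly factors of complex I, 5 rose and 0 fell in each phase, and at equal depth 2 rose and 2 fell in S-like and 1 rose and 1 fell in G2/M-like cells. Ndufaf2, which assists late assembly of complex I, rose from 17.8 and 15.2 CPM in G1-like to 40.5 and 43.0 in S-like and 33.3 and 35.3 in G2/M-like cells. Its log2 fold change was 1.36 ± 0.11 (SE, adjusted p = 5.37e-12) in S-like cells, and 0.65 ± 0.16 at equal depth. Ndufaf5, a further assembly factor, rose by 0.97 ± 0.18 (SE, adjusted p = 4.57e-05) in S-like cells and by 0.78 ± 0.27 at equal depth, and Ndufaf6 by 0.95 ± 0.15 (SE, adjusted p = 4.89e-06), which did not pass at equal depth at 0.26 ± 0.24. Ndufaf3, Ndufaf7 and Ndufaf8 did not pass in S-like cells, at -0.14, 0.25 and 0.05. At equal depth Ndufaf3 and Ndufaf7 were called lower there, at -0.39 ± 0.13 and -0.48 ± 0.19. In G2/M-like cells Ndufaf3 rose by 0.44 ± 0.08 (SE, adjusted p = 3.01e-05), which did not pass at equal depth at 0.02 ± 0.12. Ndufaf4 did not pass there, at -0.14, and was called lower at equal depth, at -0.57 ± 0.13.

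Of the 36 nuclear complex I subunits, 33 rose in S-like and 31 in G2/M-like cells, with 0 and 1 lower. At equal depth 11 rose and 4 fell in S-like and 8 rose and 9 fell in G2/M-like cells. Ndufa5 stood at 62.3 and 41.5 CPM in G1-like and 122 and 74.5 in S-like cells, a change of 0.98 ± 0.07 (SE, adjusted p = 2.78e-13). Ndufab1, the mitochondrial acyl carrier protein, stood at 97.6 and 119 CPM in G1-like and 189.8 and 217 in S-like cells, a change of 0.96 ± 0.05 (SE, adjusted p = 3.57e-15). For both genes S-like cells were higher in both libraries. At equal depth Ndufa5 changed by 0.42 ± 0.10 and Ndufab1 by 0.20 ± 0.07 in S-like cells, both still higher, whereas in G2/M-like cells Ndufa5 was higher at 0.26 ± 0.10 and Ndufab1 did not pass at -0.05 ± 0.08. Ndufa6, the one complex I subunit that fell in G2/M-like cells, changed by -0.13 ± 0.05 (SE, adjusted p = 0.0461), and by -0.43 ± 0.08 at equal depth.

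All 4 complex II genes rose in S-like and G2/M-like cells before depth was matched. Sdhd, the small membrane anchor, rose from 36.0 and 56.2 CPM in G1-like to 71.1 and 93.7 in S-like cells, a change of 0.91 ± 0.07 (SE, adjusted p = 1.70e-11). At equal depth its sign turned, to -0.39 ± 0.12 in S-like and -0.38 ± 0.12 in G2/M-like cells, whereas Sdhb remained higher, at 0.18 ± 0.06 and 0.44 ± 0.06. In complex III, 7 of 8 nuclear genes rose in each phase, led in S-like cells by Uqcrb at 0.68, and Uqcrh, the hinge protein, did not pass at 0.02 and -0.05. At equal depth 3 rose and 3 fell in S-like and 1 rose and 3 fell in G2/M-like cells. Uqcrb was then called lower, at -0.26 ± 0.08 and -0.42 ± 0.08, as was Uqcrh, at -0.29 ± 0.05 and -0.42 ± 0.05, whereas Uqcr10 rose in both, at 0.33 ± 0.06 and 0.21 ± 0.06.

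In complex IV, 11 of 14 nuclear genes rose in S-like cells, with Cox7a2 at 0.74 ± 0.05 (SE, adjusted p = 8.07e-13), Cox5a at 0.73 ± 0.05 (SE, adjusted p = 5.69e-14) and Ndufa4 at 0.72 ± 0.05 (SE, adjusted p = 1.08e-13). At equal depth 2 rose and 3 fell in S-like and 2 rose and 7 fell in G2/M-like cells. None of these 3 genes was then called in S-like cells, at 0.06 ± 0.06, -0.02 ± 0.06 and -0.08 ± 0.06, and in G2/M-like cells Cox5a and Ndufa4 were called lower, at -0.33 ± 0.06 and -0.22 ± 0.06. Cox7a2l, a close relative of Cox7a2, went the other way. It stood at 622 and 672 CPM in G1-like, 521 and 549 in S-like and 479 and 494 in G2/M-like cells, with G1-like cells highest in both libraries. Its changes were -0.23 ± 0.04 (SE, adjusted p = 5.31e-05) and -0.36 ± 0.04 (SE, adjusted p = 2.45e-08), and at equal depth -0.14 ± 0.04 and -0.38 ± 0.04, all called. Cox7a1 did not pass, at -0.40 ± 0.39 (SE, adjusted p = 0.395) in S-like cells, where its G1-like sums held 19 and 3 UMIs. Of the other isoform pairs, Cox6b1 rose by 0.35 in S-like cells but did not pass at equal depth, at -0.03 ± 0.05, and Cox6b2 did not pass at 0.37 ± 0.39 (SE, adjusted p = 0.434), with 13 and 5 UMIs in G1-like cells.

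For ATP synthase, 14 of 16 nuclear genes rose in S-like and 13 in G2/M-like cells, with 0 lower, and at equal depth 9 rose and 3 fell in S-like and 3 rose and 5 fell in G2/M-like cells. The c ring paralogs Atp5g1, Atp5g2 and Atp5g3 rose by 0.77, 0.47 and 0.61 in S-like cells. At equal depth they parted, with Atp5g1 at -0.06 ± 0.06 and not called, Atp5g2 called lower at -0.25 ± 0.05 and Atp5g3 called higher at 0.22 ± 0.06 in S-like cells. In G2/M-like cells they were at -0.48 ± 0.06, -0.44 ± 0.05 and 0.03 ± 0.06, the first 2 called lower and the last not called. The catalytic subunit Atp5b rose from 789 and 822 CPM in G1-like to 1158 and 1283 in S-like cells and remained higher at equal depth, at 0.31 ± 0.04 in S-like and 0.21 ± 0.04 in G2/M-like cells. Atp5e, the epsilon subunit, and Atp5s did not pass in either phase, and Atp5e was called lower in G2/M-like cells at equal depth, at -0.11 ± 0.04.

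Among mitochondrial genes the 3 of complex IV, mt-Cytb, mt-Nd4, mt-Nd3 and mt-Atp6 were the 7 that fell in both phases before depth was matched. The largest was mt-Co1, at 16186 and 15200.2 CPM in G1-like and 12626 and 11999 in S-like cells, a change of -0.30 ± 0.05 (SE, adjusted p = 1.40e-05). The other 6 of the 13 were not called lower. Of them mt-Nd2 and mt-Nd5 had negative estimates in both phases, and mt-Nd1, mt-Nd4l, mt-Atp8 and mt-Nd6 positive ones. Only mt-Nd6 was called, in G2/M-like cells, where it rose by 0.23 ± 0.08 (SE, adjusted p = 0.0111). At equal depth mt-Co1 rose by 0.15 ± 0.02 in S-like and 0.24 ± 0.02 in G2/M-like cells, and mt-Nd6 by 0.46 ± 0.11 and 0.42 ± 0.11.

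**Figure D4:**
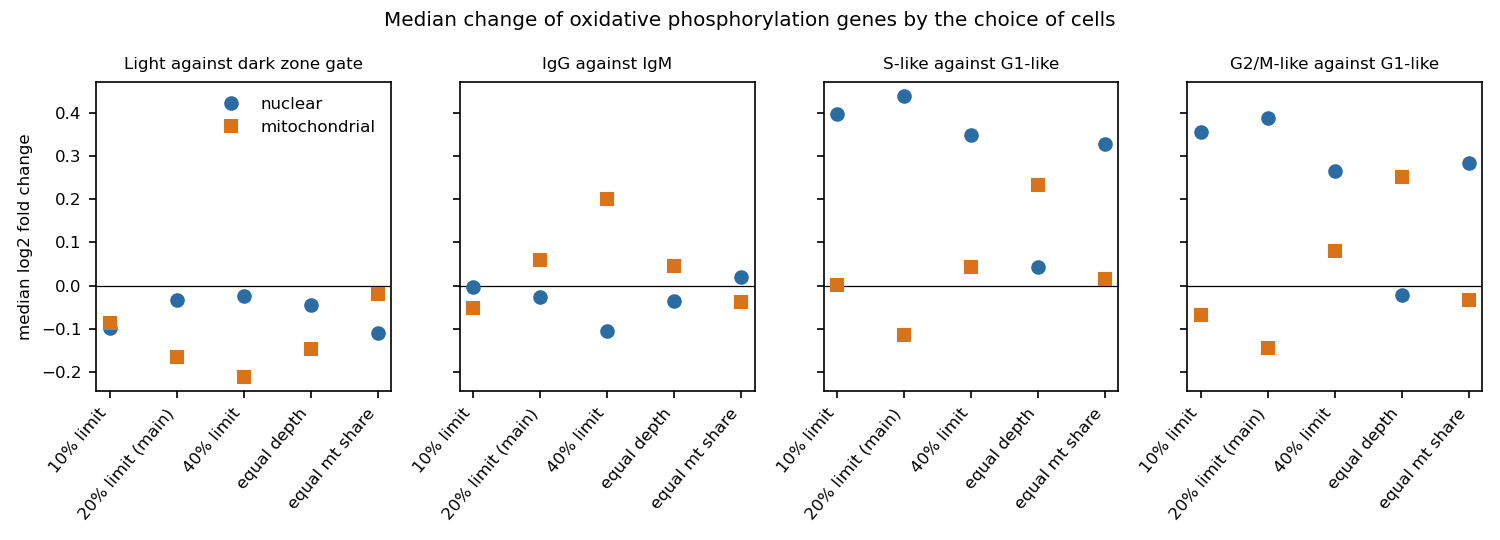
Median log2 fold change of the 86 nuclear (blue circles) and 13 mitochondrial (orange squares) genes in the 4 comparisons under 5 choices of cells, namely mitochondrial limits of 10%, 20% and 40%, equal depth and equal mitochondrial share. The mitochondrial median changes sign with the choice of cells for isotypes and phases and stays below 0 for the zone gates.

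Nuclear transcript levels of the set fell with the mitochondrial share of a barcode. In CPM of nuclear genes only, the 86 genes summed to 27825 and 24208 in barcodes with up to 5% mitochondrial UMIs, 26340.0 and 23400 at 5% to 10%, 20860.4 and 19718 at 10% to 15%, and 18257 and 17621 at 15% to 20%. The order was the same in both libraries. Cytosolic ribosomal protein genes, counted for comparison, moved less, from 281695 and 245023 in the lowest to 245611 and 232819 in the highest bin. Median depths of the bins differed too, from 11646.5 and 9007.5 UMIs in the lowest through 16469.5 and 16268 to 6116 and 6051 in the highest.

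**Figure D5:**
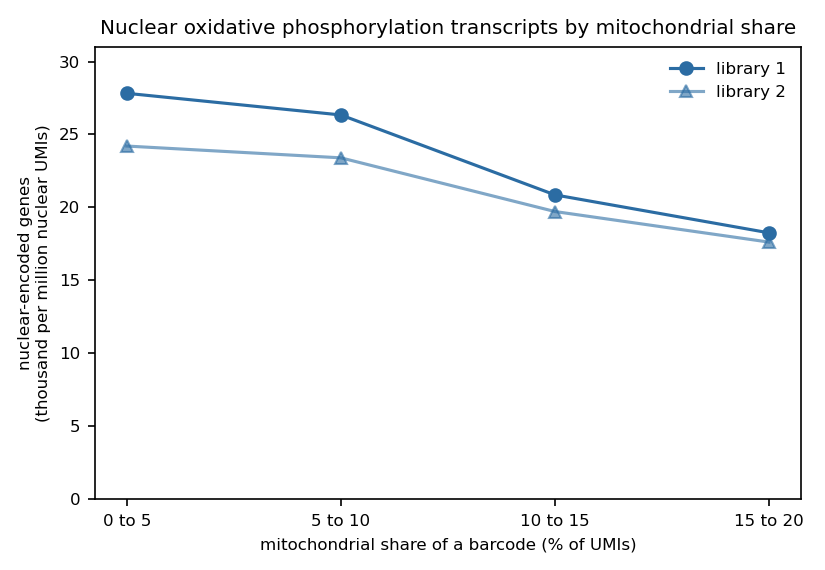
Summed level of the 86 nuclear oxidative phosphorylation genes, relative to all nuclear UMIs (in units of 1000 CPM), by the mitochondrial share of the barcode, with library 1 as circles and library 2 as triangles. Both lines fall from the lowest to the highest share.

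Other genes of the pathway were followed as fixed lists, counted without matching of cells and at equal depth only. Other mitochondrial limits and equal mitochondrial share, on which the nuclear rises in the light zone gate depended, were not tried for these lists. Whether the changes of the lists depend on the mitochondrial share of the cells was therefore not tested. In the light zone gate, 14 of 22 carriers and pores of the inner and outer membranes rose and 0 fell, at a median log2 fold change of 0.20, where 17.1% of all genes rose and 13.3% fell. At equal depth 9 rose and 0 fell. They included Mpc1, a pyruvate carrier subunit, at 0.51 ± 0.08 (SE, adjusted p = 4.00e-09). Of 44 assembly factors without the 8 Ndufaf members, 8 rose and 1 fell, and 6 and 1 at equal depth, with Sco2, a copper chaperone of complex IV, at 0.75 ± 0.17 (SE, adjusted p = 5.48e-05). Genes for transcription and translation of mitochondrial DNA gave 6 higher and 0 lower of 29, and 3 and 0 at equal depth. Mitochondrial ribosomal proteins gave 21 and 6 of 77, and 14 and 9 at equal depth. Cytosolic ribosomal proteins, counted beside these lists, gave 23 and 10 of 78, and 23 and 9 of 77 at equal depth. Of 18 tricarboxylic acid cycle genes, 1 rose, Idh3a at 0.45 ± 0.08 (SE, adjusted p = 7.68e-07), and 2 fell, and 1 and 1 at equal depth. Glycolysis genes gave 6 higher and 3 lower of 16, and the same counts at equal depth, with Hk2, a hexokinase, at 0.68 ± 0.14 (SE, adjusted p = 7.32e-06) and Gapdh at -0.15 ± 0.03 (SE, adjusted p = 3.04e-07). Among 15 regulators, 4 rose and 2 fell, and 4 and 4 at equal depth, with Myc, a driver of growth, at 1.57 ± 0.11 (SE, adjusted p = 4.50e-41), the coactivator Ppargc1b at 0.71 ± 0.16 (SE, adjusted p = 1.11e-04) and Foxo1 at -0.30 ± 0.05 (SE, adjusted p = 1.48e-07).

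Between isotypes few of these genes passed, where 5.87% of all genes were higher and 8.17% lower. In IgG cells 6 of 16 glycolysis genes were higher and 0 lower, led by Hk2 at 0.29 ± 0.09 (SE, adjusted p = 0.0249), and 3 of 18 tricarboxylic acid cycle genes were lower, led by Suclg2 at -0.30 ± 0.06 (SE, adjusted p = 4.71e-05). Higher and lower genes numbered 3 and 1 among assembly factors, 2 and 2 among carriers and pores, 3 and 1 among regulators, and 3 and 2 among mitochondrial ribosomal proteins, and 0 and 0 for mitochondrial gene expression. Cytosolic ribosomal proteins, at 78 genes, gave 0 higher and 17 lower, and 0 and 51 at equal depth, a list kept for comparison.

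In S-like against G1-like cells 69 of 78 mitochondrial ribosomal protein genes rose and 0 fell, at a median of 0.45, where 28.6% of all genes rose and 29.1% fell, but at equal depth 17 rose and 12 fell. Tricarboxylic acid cycle genes gave 14 higher of 18, and 3 at equal depth, with Idh3a at 1.05 ± 0.08 (SE, adjusted p = 6.30e-12). Carriers and pores gave 18 higher and 2 lower of 22, and 5 and 8 at equal depth, led by Slc25a10, the dicarboxylate carrier, at 2.10 ± 0.15 (SE, adjusted p = 4.72e-13), with Cycs, cytochrome c, at 1.16 ± 0.06 (SE, adjusted p = 3.36e-16). Assembly factors gave 22 higher and 7 lower of 44, and 5 and 10 of 43 at equal depth. Mitochondrial gene expression gave 13 and 1 of 29, and 5 and 5 at equal depth. Glycolysis gave 12 and 0 of 16, and 5 and 1 of 15 at equal depth, and regulators 5 and 5 of 15, and 4 and 1 at equal depth. Among assembly factors Cmc2, needed for complex IV, led at 1.51 ± 0.09 (SE, adjusted p = 1.66e-14), and among regulators Gabpa rose by 0.60 ± 0.09 (SE, adjusted p = 4.00e-06) and Foxo1 fell with -0.69 ± 0.05 (SE, adjusted p = 7.56e-13). In G2/M-like cells mitochondrial ribosomal proteins gave 63 higher and 1 lower, and 12 and 26 at equal depth, and carriers and pores 18 and 2, and 3 and 13 at equal depth. Cytosolic ribosomal proteins gave 34 higher and 5 lower of 78 in S-like cells, and 10 and 46 of 77 at equal depth. For G2/M-like cells that list gave 14 and 15 of 78, and 1 and 66 of 77 at equal depth.

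Promoters of the nuclear genes were searched for motifs of factors known to act on this pathway, since most of these genes rose together in S-like cells before depth was matched. Windows of 250 bases before to 50 after the start in RefSeq on GRCm38.p6 were matched for 72 of the 86 genes. Searched on both strands were GCGCATGCG for NRF1, CCGGAAG for ETS factors such as GABPA, AAGATGGCG for YY1, GGGCGG for Sp factors and CCAAT, of which none lies inside another and the first overlaps its own reverse complement. The NRF1 letters were in 10 of 72 windows (13.9%), against 4.20% of 8637 genes with at least 50 UMIs and 1.81% of 27025 genes in all. The YY1 letters were in 7 (9.72%), against 3.74% and 1.49%, and the ETS letters in 17 (23.6%), against 20.7% and 9.12%. GGGCGG was in 32 (44.4%), against 65.4% and 35.9%, and CCAAT in 32 (44.4%), against 39.9% and 37.9%. A match is a description of letters and does not show binding.

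Of the 10 genes, 7 held the NRF1 letters before the start, namely Ndufa8, Cox6a1, Atp5g2, Atp5k, Ndufaf4, Atp5l and Ndufa11, and all 7 rose in S-like cells, as did 74 of all 86 nuclear genes, so their count shows nothing particular to these promoters. The 4 with the largest S-like change are shown, chosen after their values were seen, as the 250 bases before the start, 5′ to 3′ along the gene, with NRF1 and ETS matches in capitals. The NRF1 letters lie 9 bases upstream in Ndufa8. They form overlapping matches on both strands that begin 162 and 161 bases upstream in Cox6a1, 42 and 41 in Atp5g2 and 50 and 49 in Atp5k. An ETS match lies 16 bases upstream in Cox6a1. The searched window of Atp5k also held the ETS letters, but not wholly within the bases shown.
Ndufa8 (chr2:36049339-36049588, minus strand): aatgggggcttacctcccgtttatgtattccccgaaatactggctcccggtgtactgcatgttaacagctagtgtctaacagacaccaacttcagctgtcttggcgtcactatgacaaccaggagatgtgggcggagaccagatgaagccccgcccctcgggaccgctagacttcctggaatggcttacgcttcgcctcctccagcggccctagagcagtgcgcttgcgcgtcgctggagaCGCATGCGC
Cox6a1 (chr5:115348959-115349208, minus strand): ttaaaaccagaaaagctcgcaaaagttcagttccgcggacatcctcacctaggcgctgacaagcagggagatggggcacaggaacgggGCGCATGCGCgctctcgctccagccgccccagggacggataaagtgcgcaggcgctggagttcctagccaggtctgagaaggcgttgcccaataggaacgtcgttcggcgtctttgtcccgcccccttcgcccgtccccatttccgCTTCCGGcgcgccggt
Atp5g2 (chr15:102671048-102671297, minus strand): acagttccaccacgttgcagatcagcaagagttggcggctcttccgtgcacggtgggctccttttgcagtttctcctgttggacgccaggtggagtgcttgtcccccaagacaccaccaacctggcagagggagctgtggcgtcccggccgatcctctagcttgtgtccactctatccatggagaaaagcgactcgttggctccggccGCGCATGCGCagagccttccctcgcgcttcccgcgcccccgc
Atp5k (chr5:108434400-108434649, minus strand): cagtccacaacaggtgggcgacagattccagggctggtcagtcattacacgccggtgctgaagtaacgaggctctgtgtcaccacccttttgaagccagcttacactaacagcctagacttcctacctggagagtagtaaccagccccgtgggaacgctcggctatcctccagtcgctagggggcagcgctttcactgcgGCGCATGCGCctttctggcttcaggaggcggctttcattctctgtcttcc
Their S-like changes were 0.54, 0.51, 0.47 and 0.38, and at equal depth -0.36 ± 0.09, 0.21 ± 0.06, -0.25 ± 0.05 and 0.25 ± 0.06 (SE), so genes that hold the same letters differed in sign there.

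The libraries differed in part of the set. The median ratio of library 1 to library 2 was 1.01 over the 99 genes, but 15 (15.2%) were over 1.5 times higher in library 1 and 0 in library 2, against 279 (2.48%) and 132 of 11248 genes with at least 50 UMIs. Besides Cox7a1 at 3.23 times, with few UMIs, the largest were mt-Nd3 at 1831 and 857 CPM, mt-Nd4l at 241 and 116 and mt-Atp8 at 99.9 and 50.5, each about 2 times higher in library 1. Among nuclear genes Ndufa1, Atp5e, Atp5k, Uqcr11 and Ndufa3 differed most. Annotated transcripts of the 15 genes had a median of 434 bases (204 to 782), against 919.5 bases for the other 84, and the part of transcript length in the difference was not tested. Levels of these genes are therefore given for each library, and class differences were taken within libraries.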

How the data were processed

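Droplet 3′ RNA-seq of 2 libraries of sorted mouse splenic germinal center B cells was analysed. The deposited matrices hold UMI counts per gene and barcode, made by the authors with Cell Ranger 3.0.2, per the file headers, on mm10, per the submitters' processing notes; annotation, strand use and cell calling are not given in the sources used here. Barcodes below 500 genes or 1000 UMIs, or above 20% mitochondrial UMIs, were removed. Counts were thinned to 3400 UMIs a barcode for zone and phase calls, which left out shallower barcodes (465 and 391), and full counts were summed per library and class. Sums were tested with edgeR 4.0.16 in R 4.3.3 (quasi-likelihood, TMM, filterByExpr, library as a block, Benjamini-Hochberg over all genes, threshold 0.05). Phases were scored with scanpy 1.11.5. The fits were checked on simulated data with 200 changed genes. Alternatives were DESeq2 1.42.0, no block, other scaling, filters, mitochondrial limits of 10% and 40%, equal depth, equal phase, doublet, gate and isotype settings, and, added after seeing the data, equal mitochondrial share.

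Members and lists were chosen with earlier results of these data known. By rule the text names up to 8 called members per direction and comparison, by size, with the same sign in both libraries. It also names all mitochondrial members, paralog sets and up to 3 genes per direction of each related list. Other members were picked after their values were seen, to describe each complex. Median log2 fold changes over members have no test. Some single genes are not reported here. Barcodes above the mitochondrial limit and those called as mixed isotype or with few heavy chain UMIs entered no comparison.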

Additional observations from a re-analysis of the deposited data

How the results depend on the processing

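The 4 comparisons were refitted with other choices, and values are log2 fold changes unless given as counts. The number of called genes moved by over 1.5 times as follows. For the zone gates it was 43, and 17 by DESeq2, 1 with no replicate block and 25 with a 10% mitochondrial limit. For isotypes it was 10, and 19 with total counts (11 higher, 8 lower), 61 with a 40% limit, 26 at equal depth, 16 without the 6% highest doublet scores and 16 with stricter isotypes (at least 10 UMIs and 90%). For isotypes it was 0 by DESeq2 (10 at an unadjusted p under 0.05) and 0 by edgeR with no replicate block (1 at an unadjusted p under 0.05). With no replicate block the counts were 45 of 82 for S-like and 38 of 80 for G2/M-like cells. The block is the library, since both classes of a comparison were cells of the same library. Other settings moved counts by less, but for the zone gates 1 of the 16 nuclear rises remained at equal mitochondrial share (1 higher, 29 lower).

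Values were followed for 129 named results, 89 of them past the threshold. Among those 89, signs turned with the 10% limit (5), the 40% limit (7), equal depth (29) and equal mitochondrial share (10). Under any other setting, or in 1 library alone, 0 of the 89 turned. For members named by size of change, the result in 1 library alone was fixed in advance. They were picked only if both libraries had the same sign. Among the other 40, which had not passed, 20, 9, 9 and 20 turned under these 4 choices, 1 to 5 with equal phase shares, another seed, stricter isotypes, total counts or unthinned calls, and 8 and 2 when library 1 or library 2 was left out, which gives values with no test. The values that turned and were called either way, and the medians that turned, follow. For the zone gates they turned at equal mitochondrial share in mt-Co1 0.0016, mt-Nd4 0.017, mt-Nd5 0.020, mt-Nd3 0.021, Atp5g2 -0.0021, Cox8a -0.071 and Ndufa4 -0.085, and with the 10% limit in mt-Nd4l 0.025, mt-Nd5 0.020, Cox8a -0.085 and Ndufa4 -0.019. For isotypes they turned with the 10% limit in the mitochondrial median -0.051, mt-Co1 -0.14, mt-Co2 -0.12, mt-Co3 -0.13, mt-Cytb -0.10 and mt-Atp6 -0.092, and at equal mitochondrial share in the mitochondrial median -0.039, Ndufa7 0.0022, Cox8a 0.0025, mt-Co1 -0.090, mt-Co2 -0.073, mt-Co3 -0.070, mt-Cytb -0.052 and mt-Nd4 -0.050. For S-like cells they turned at equal depth in the mitochondrial median 0.23, Atp5g1 -0.056, Sdhd -0.39, mt-Co1 0.15, mt-Co3 0.22, mt-Cytb 0.18, mt-Co2 0.23, mt-Nd4 0.19, mt-Atp6 0.24, mt-Nd3 0.18, mt-Nd5 0.22, mt-Nd2 0.27, Atp5g2 -0.25, Cox6b1 -0.027, Cox8a -0.19 and Ndufa4 -0.080. With the 40% limit they turned in the mitochondrial median 0.043 and mt-Nd3 0.043, with the 10% limit in mt-Nd3 0.0013, and at equal mitochondrial share in the mitochondrial median 0.016 and mt-Nd3 0.016. For G2/M-like cells they turned at equal depth in the mitochondrial median 0.25, Ndufb6 -0.11, Ndufaf6 -0.19, Sdhd -0.38, Ndufab1 -0.053, mt-Cytb 0.18, mt-Co1 0.24, mt-Co3 0.28, mt-Nd4 0.18, mt-Nd3 0.13, mt-Co2 0.29, mt-Atp6 0.30, mt-Nd2 0.22, mt-Nd5 0.18, Atp5g1 -0.48, Atp5g2 -0.44, Cox6b1 -0.031, Cox8a -0.28 and Ndufa4 -0.22, and with the 40% limit in the mitochondrial median 0.079, mt-Co1 0.019, mt-Co3 0.029, mt-Nd4 0.011, mt-Nd3 0.037, mt-Co2 0.079 and mt-Atp6 0.075. The cause was not tested.

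With 2 libraries and 1 residual degree of freedom for zones and isotypes, the test rests on spread shared across genes. On simulated data it recovered 45% of 1.5-fold and 87% of 2-fold changes for the zone gates, and 28% and 81% for G2/M-like cells. The simulated counts had the same fixed spread for all genes and no difference between libraries. These rates therefore need not hold for the real sums, where Cox4i1 was called at -0.09 for the zone gates. Changes can still be missed.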
